A study of Homo sapiens with 4 samples.

Results

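Aminoacyl-tRNA synthetases were examined in a transcriptome-wide map of RNA bound by YTHDF1. The gene set held 36 synthetase genes, of the 20056 protein-coding genes in RefSeq. They were picked by name and not by a measured value, but with earlier results of these data known. Of the 36 genes, 20 encode cytosolic enzymes and 16, whose symbols end in 2, encode mitochondrial enzymes. At least 1 window of YTHDF1 enrichment was listed in 21 of the 36 genes (58.3%), and these held 64 of the 26819 distinct windows in the table. Among all RefSeq protein-coding genes, 31.8% had a listed window. This background includes genes that the cells may not express at all, and expression was not taken into account, so nothing is read from the difference between these shares. WARS, the tryptophanyl-tRNA synthetase known for its induction by interferon-γ (IFN-γ), had no listed window.

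SNU638, an established human gastric cancer cell line, was studied by RNA immunoprecipitation followed by sequencing (RIP-seq). There were 4 libraries, 2 biological replicates of RNA pulled down with YTHDF1 (IP-YTHDF1) and 2 of the input RNA. Cells of both groups overexpressed YTHDF1, spent 24 h without serum and then 24 h with IFN-γ at 10 ng/ml. No untreated library, no library without overexpression and no pull-down with a control antibody was analysed here, so the values describe RNA recovered with an overexpressed protein under IFN-γ and do not show what IFN-γ changed. For each listed window, a stretch of 50 bp, the table gives how IP-YTHDF1 compared with input as a signal value, with its p-value and q-value. The 4 libraries were combined in these values. Therefore the spread between replicates and the depth of each library are unknown, no difference described here could be tested, and fewer cells holding a transcript and less of it per cell cannot be told apart. The epithelial markers EPCAM, KRT8, KRT18 and KRT19 had listed windows and CDH1 had none, and 0 of 3 leukocyte markers (PTPRC, CD3E and LYZ) were listed.

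Aminoacyl-tRNA synthetases join each amino acid to its tRNAs, which the ribosome then uses to read codons. They fall into class I and class II by the fold of the catalytic site. Several cytosolic enzymes are held with scaffold proteins in the multi-synthetase complex, whereas the mitochondrial enzymes are made in the cytosol from separate nuclear genes and imported. GARS and KARS are exceptions, since each gives both the cytosolic and the mitochondrial enzyme. YTHDF1 is a cytoplasmic reader of N6-methyladenosine (m6A) in RNA, a mark written mostly within a short consensus with the core GGAC. WARS and IDO1, which starts the breakdown of tryptophan, are both well-known IFN-γ-induced genes.

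Many windows of the cytosolic genes lay within the first bases of the gene. The following stretches of RefSeq sequence (GRCh38.p14) are shown because they lie inside such windows. They are given 5′ to 3′ on the strand of the gene, as far as the sequence table used here reached and, outside the coding sequence, up to 30 bases. Capitals mark a start codon, and the other stretches have none marked. The stretch of EPRS was chr1:220046471-220046500, minus strand, bases 6 to 35 of the gene, in a window with a signal value of 2.17. The stretch of SARS was chr1:109213919-109213948, plus strand, bases 27 to 56, in a window at 2.77. The stretch of MARS was chr12:57488096-57488117, plus strand, bases 29 to 50, in a window at 1.42. The stretch of TARS was chr5:33440997-33441014, plus strand, bases 302 to 319, in a window at 1.89. The window of HARS, chr5:140691255-140691304, minus strand, bases 67 to 116, is given whole and had a signal value of 1.43. It begins at the ATG start codon of HARS.
EPRS: ctgcggcggcgtcgggtacgcgcacacgtt
SARS: cagtgcggcggtcacaggctgagtgctgcg
MARS: actgttcgtgagtgatggcgtc
TARS: cccgggcgctagcccacc
HARS: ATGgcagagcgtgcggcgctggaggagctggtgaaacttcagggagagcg

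None of these 5 stretches held the letters GGAC on the strand of the gene or its reverse complement GTCC. That statement covers only the letters printed, and the rest of most windows was not read. GGAC covers only some forms of DRACH, the m6A consensus that the paper names, and DRACH as a whole was not searched for. The HARS window holds AAACT, which is a form of DRACH, so the lack of GGAC is not a lack of the consensus. In the first 50 bases after each RefSeq start site of a protein-coding gene, GGAC was present at 19.8% of 22199 sites and GTCC at 18.8%. The sequence table held 30 of the 36 synthetase genes with 39 start sites, of which 8 (20.5%) had GGAC and 7 (17.9%) had GTCC. Among the 23 start sites of synthetase genes with a listed window, 3 (13.0%) had GGAC and 5 (21.7%) had GTCC. Over the 39 start sites both shares lay within 1 percentage point of those of all coding genes, and a match is not evidence of an m6A site.

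WARS was in the set as an IFN-γ-induced gene, and the table held no value for it. The gene lies on chromosome 14 between positions 100333790 and 100376327 (RefSeq name WARS1), and neither symbol had a listed window. Only windows within the authors' q-value limit of 0.05 are listed, and any other filters are not given. Hence the absence of WARS does not show that none of its windows passed this limit, nor that YTHDF1 did not bind its RNA. The mitochondrial tryptophan enzyme WARS2 had 1 window at 2.05, with a q-value of 0.004547, located 64156 bp into the gene. WARS2-AS1, a long non-coding RNA gene on the opposite strand, had 7 windows with signal values from 1.83 to 2.72. None of these lay inside the WARS2 interval, and the nearest was 6320 bp beyond its 5′ end. In contrast to WARS, IDO1 had 6 windows from 0.78 to 1.97. The window at 1.97 lay outside the RefSeq gene, at -65 bp relative to its 5′ end, and that at 1.46 began at -15 bp. IRF1, a transcription factor of the IFN-γ response, had 3 windows at 2.37, 1.85 and 0.76. Thus the 3 IFN-γ-induced genes set side by side were not alike in the table.

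The cytosolic and mitochondrial enzymes had similar numbers of windows per listed gene. A listed window was present in 13 of 20 cytosolic genes (65.0%, 36 windows) and in 8 of 16 mitochondrial genes (50%, 28 windows), and the median was 3 windows per listed gene in each compartment, as in all listed coding genes. The strongest window of each gene had a median signal value of 2.27 in the cytosolic genes (range 1.34 to 3.10) and 1.89 in the mitochondrial genes (1.49 to 2.57). All listed protein-coding genes had a median of 2.23 (0.87 to 6.76). Therefore the cytosolic median was near that of all genes and the mitochondrial median lower, but the ranges of the compartments overlapped over most of their width. The order of the compartments turned at a q-value of at most 0.001, where 9 cytosolic and only 3 mitochondrial genes remained. A window with a signal value of at least 2 was found in 8 cytosolic and 3 mitochondrial genes, 11 of the 36 in all, compared with 22.1% of RefSeq protein-coding genes. Expression was not taken into account, so nothing is read from this difference. Among listed genes alone, such a window was present in 61.5% of cytosolic and 37.5% of mitochondrial genes. Both shares were below the 69.5% of all listed coding genes.

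**Figure D1:**
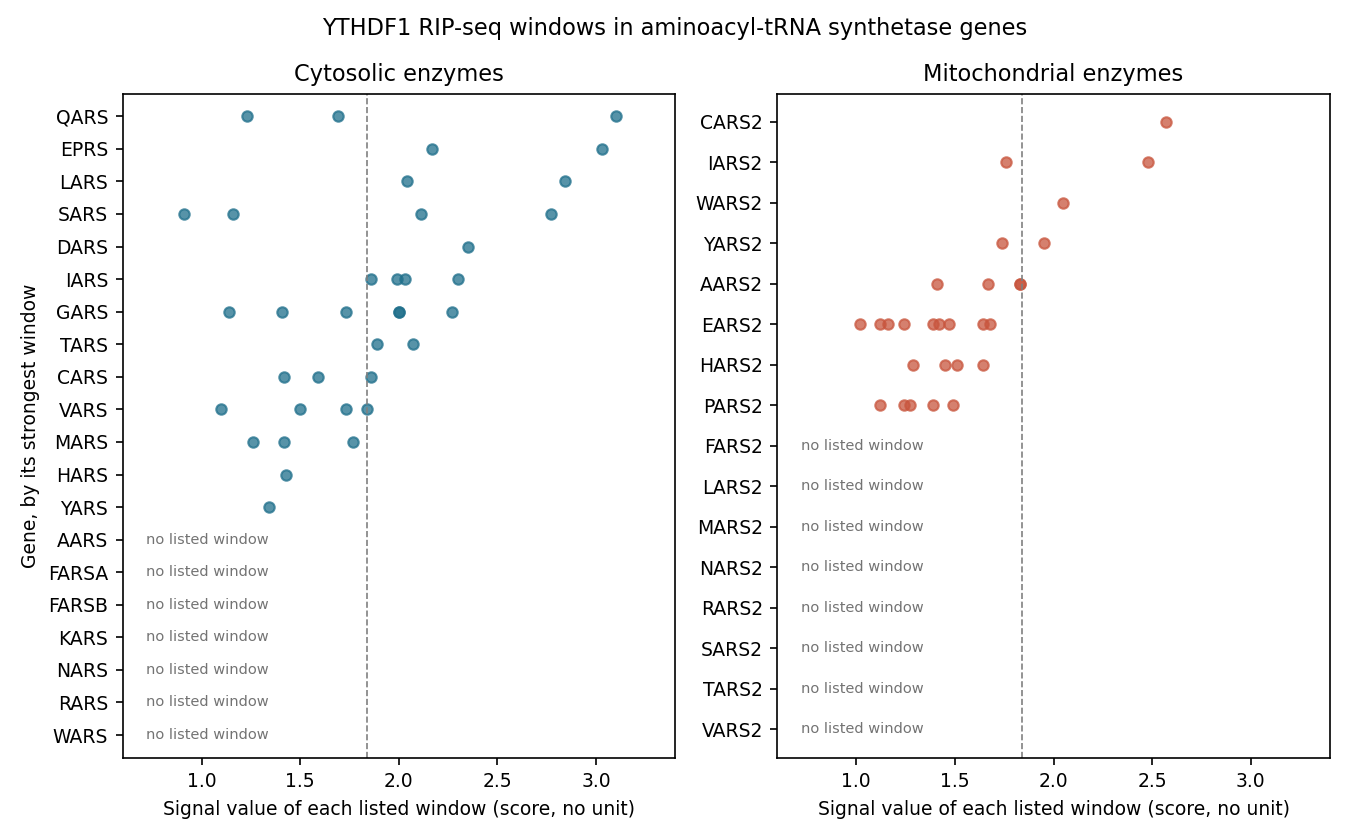
Signal value (score without unit, x axis) of each listed window in the 20 cytosolic (left) and 16 mitochondrial (right) synthetase genes, ordered by the strongest window; each point is 1 window, and the dashed line is the median of all listed windows (1.84). QARS and EPRS reach above 3, the mitochondrial genes stay at or below 2.57, and 15 genes, WARS among them, have no listed window.

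The highest signal values were in QARS, EPRS and LARS, 3 subunits of the multi-synthetase complex. QARS, the glutaminyl enzyme, had windows at 3.10, 1.69 and 1.23. Its strongest window (chr3:49096783-49096832, q-value 6e-15) lay 7925 bp from the 5′ end of the gene and 851 bp from the 3′ end, and 93.5% of listed coding genes had a lower strongest window. EPRS, which charges both glutamate and proline tRNAs, had touching windows at 3.03 and 2.17 next to its 5′ end. The stronger of them (chr1:220046401-220046450, q-value 1.09e-12) began 55 bp into the gene and the other 5 bp into it. LARS, the leucyl enzyme and also a leucine sensor of the mTORC1 pathway, had windows at 2.84 and 2.04. The former (chr5:146182535-146182584, q-value 1.01e-08) began 66 bp from the 5′ end, and the latter 25116 bp. Thus EPRS and LARS had their strongest window at the start of the gene and QARS towards its end.

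The other listed genes of the complex were DARS, IARS and MARS, which charge aspartate, isoleucine and methionine tRNAs. DARS had 1 window at 2.35, of only 7 windows tested in this gene. IARS had windows at 2.30 and 2.03, beginning 40 and 90 bp into the gene, and others at 1.99 and 1.86 25440 and 12890 bp into it. MARS had windows at 1.77, 1.42 and 1.26, of which the first and second began 78 and 28 bp into the gene. KARS and RARS, the remaining genes of the complex, had none. In total, 6 of 8 genes of the complex were listed, with a median strongest signal value of 2.595, compared with 7 of 12 other cytosolic genes with a median of 1.86. Of RefSeq protein-coding genes 31.8% were listed, and the median over all listed coding genes, 2.23, lay between these values. The groups are small, and the difference between them was not tested.

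Among the cytosolic enzymes outside the complex, SARS, the seryl enzyme, had the strongest window at 2.77 (q-value 1.63e-09), 26 bp into the gene. Its windows at 1.16 and 0.91 followed directly on the first, and the last, at 2.11, began 776 bp into the gene. GARS, the glycyl enzyme, had 6 windows at 2.27, 2.00, 2.00, 1.73, 1.41 and 1.14. Of these, 4 touched each other and formed a block of 200 bp that began 204 bp into the gene. Of the 18 windows tested in GARS, 33.3% were listed, compared with a median of 8.93% over all listed coding genes. TARS, the threonyl enzyme, had touching windows at 2.07 and 1.89, beginning 351 and 301 bp into the gene. In these 3 class II genes the strongest window lay near the start.

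CARS, the cysteinyl enzyme, had windows at 1.86, 1.59 and 1.42, all at least 18151 bp into the gene. VARS, the valyl enzyme that associates with elongation factor 1, had windows at 1.84, 1.73, 1.50 and 1.10 spread from 2684 to 18134 bp. The lowest strongest windows of the cytosolic genes were in HARS and YARS, the histidyl and tyrosyl enzymes. HARS had 1 window at 1.43 with a q-value of 0.01052, that at its start codon shown above. YARS had 1 window (chr1:32780188-32780237) at 1.34, with a q-value of 0.04598 just under the limit of the table, 37121 bp into the gene. AARS, FARSA, FARSB, NARS and WARS, like KARS and RARS in the complex, had no listed window. FARSA and FARSB encode the subunits of a single enzyme and were both absent.

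The mitochondrial genes had a lower median strongest signal value. This order turned when only windows with a q-value of at most 0.001 were kept. The medians were then 2.30 over the 9 cytosolic genes and 2.48 over the only 3 mitochondrial genes that remained. CARS2 had 1 window at 2.57 (q-value 2.86e-06), which lay 7460 bp from the outer 5′ end of the gene and 54 bp from another RefSeq start site of it. IARS2 had touching windows at 2.48 and 1.76, beginning 151 and 101 bp into the gene. YARS2 had windows at 1.95 and 1.74, 57 and 307 bp into the gene. AARS2 had windows at 1.83, 1.83, 1.67 and 1.41, and those with the shared highest value began 8616 and 16 bp into the gene. Hence IARS2 and YARS2 resembled the cytosolic genes in position, and AARS2 did so with 1 of its strongest windows.

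EARS2, the mitochondrial glutamyl enzyme, had 9 windows from 1.02 to 1.68, and no gene in the table had more than 9. Of the listed protein-coding genes, 12.8% had 9 windows, and EARS2 was the only such gene among the 21 listed synthetases. At least 51 windows were tested in EARS2, and the q-values of this gene show that further windows may have been left off the list. HARS2 had windows at 1.64, 1.51, 1.45 and 1.29, of which the last pair touched and began 226 and 176 bp into the gene. PARS2, the prolyl enzyme, had the lowest strongest window of the mitochondrial genes (chr1:54759099-54759148, 1.49, q-value 0.006867) and others at 1.39, 1.27, 1.24 and 1.12, all of them between 5375 and 6725 bp into the gene. FARS2, LARS2, MARS2, NARS2, RARS2, SARS2, TARS2 and VARS2 had no listed window.

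The cytosolic genes had most of their strongest windows near the 5′ end. A window was called near the 5′ end of the RefSeq gene if it began within 500 bp of that end on either side. It was called near the 3′ end if it ended within 500 bp of that end on either side. Introns were included. The strongest window was near the 5′ end in 9 of 13 listed cytosolic genes (69.2%) and in 2 of 8 listed mitochondrial genes (25.0%), compared with 31.3% of all listed coding genes placed on RefSeq. Where windows of a gene shared the highest value, the one with the smaller p-value was taken. In AARS2 this was the window 8616 bp into the gene, and with its equal at 16 bp the mitochondrial count was 3 of 8 (37.5%), above the share of all coding genes, which was 31.7% when ties were settled this way. Any window near the 5′ end was found in 10 cytosolic and 4 mitochondrial genes, compared with 43.8%. By windows, 19 of 36 cytosolic windows (52.8%), 7 of 28 mitochondrial windows (25.0%) and 24.7% of the windows of all coding genes were near the 5′ end. The strongest window was near the 3′ end in 0 of the 21 listed genes, compared with 3.23% of all listed coding genes. VARS had the only window of the 64 near a 3′ end, at 1.73. The median distance of the strongest window from the 5′ end was 203 bp in the cytosolic genes, 6417.5 bp in the mitochondrial genes and 3694 bp in all coding genes. With ties settled by the window nearest to the 5′ end, the medians were 203, 3725.5 and 3503 bp, so that the mitochondrial genes were close to all coding genes. No test of these differences was possible in a table that combines the libraries, and exons, coding sequence and untranslated regions were not separated here.

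**Figure D2:**
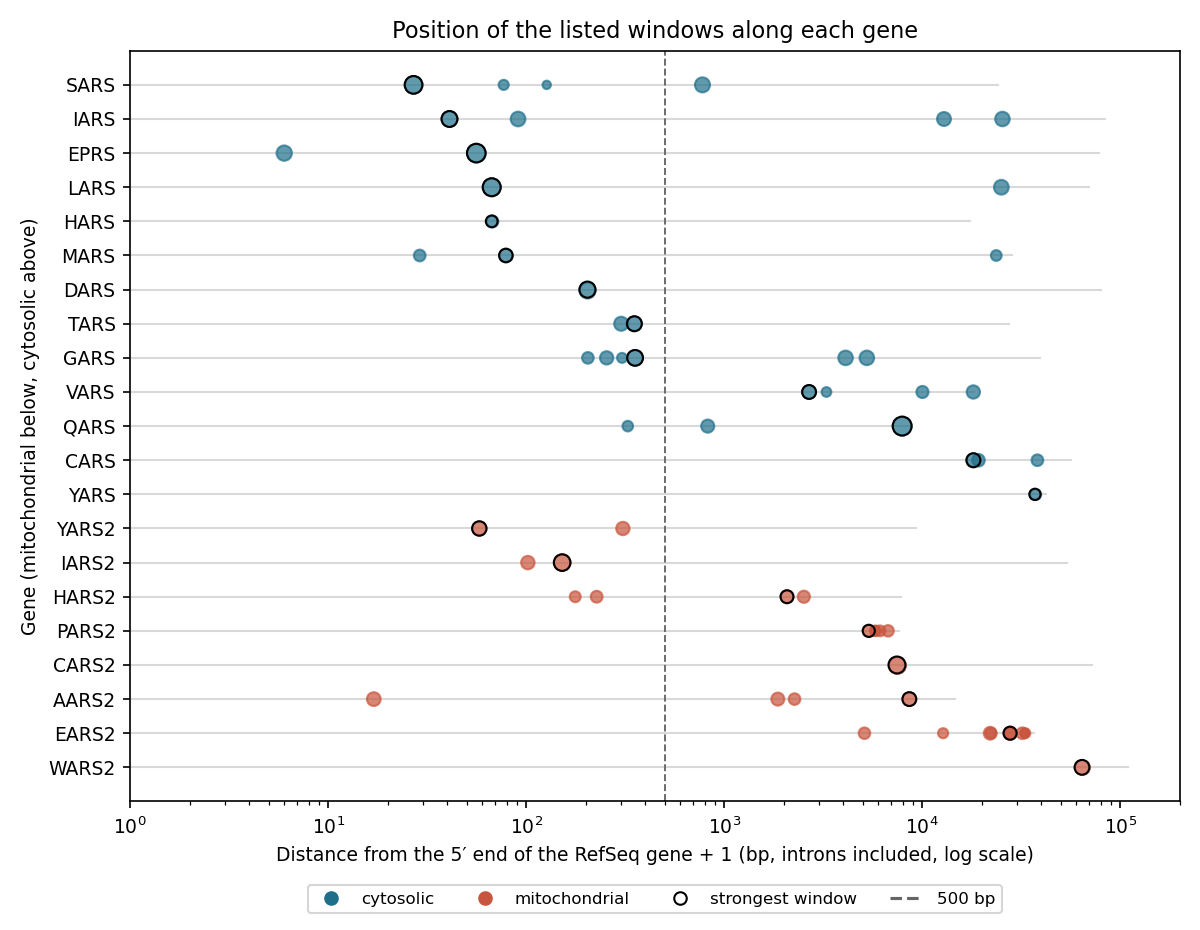
Distance from the 5′ end of the RefSeq gene (bp plus 1, log scale, x axis) of every listed window in the 21 listed synthetase genes (y axis); point area grows with the signal value, a black ring marks the strongest window, grey lines show the gene length and the dashed line marks 500 bp. Rings of 9 cytosolic genes (blue) and of 2 mitochondrial genes (red) lie left of the 500 bp line. The ring of AARS2 is on its window at 8616 bp and could equally stand on that at 16 bp, which would make 3.

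The count of 9 cytosolic genes held when the limit was 1000 bp, when ties were settled by the nearest window, when the nearest RefSeq start site of any transcript was used, and when the window with the smallest p-value took the place of the strongest. It was 7 with a limit of 250 bp, where 23.7% of all listed coding genes were near. The mitochondrial count was 3 with any start site, through CARS2, and also 3 with the smallest p-value or with ties settled by the nearest window. Thus the cytosolic share stayed above that of all coding genes in each setting, whereas the mitochondrial share lay on either side of it.

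**Figure D3:**
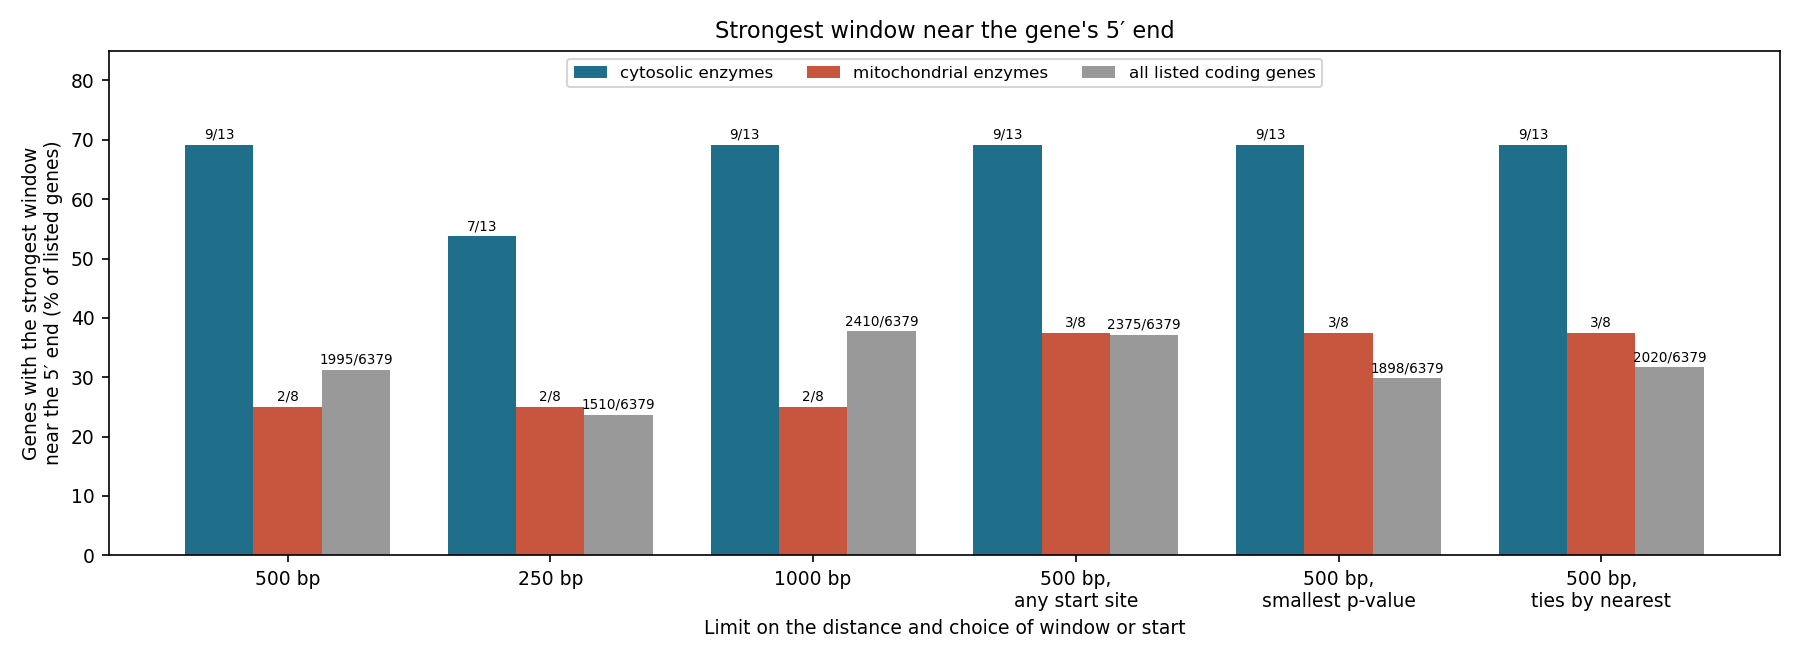
Share of listed genes (%, y axis, from 0) whose strongest window lies near the 5′ end, for cytosolic synthetases (blue), mitochondrial synthetases (red) and all listed protein-coding genes (grey), with the limit or choice of window on the x axis and the counts above the bars. The cytosolic bars stand at 69.2% in 5 of the 6 settings and at 53.8% with the limit of 250 bp.

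Both enzyme classes had windows. Of the genes for class I enzymes 12 of 18 (66.7%) were listed, and of those for class II enzymes 8 of 17 (47.1%), with EPRS, which holds a part of each class, left out, beside 31.8% of RefSeq protein-coding genes. Near the 5′ end, the share of all listed coding genes was 31.3%. In the cytosol, all 5 listed class II genes (DARS, GARS, HARS, SARS and TARS) had the strongest window near the 5′ end, compared with 3 of 7 listed class I genes (IARS, LARS and MARS). In mitochondria it was 0 of 3 for class II and 2 of 5 for class I. With the other strongest window of AARS2, class II had 1 of 3. By this measure the order of the classes was not shared by the compartments. By any window near the 5′ end, class II had the higher share in both. The counts were 5 of 5 against 4 of 7 in the cytosol and 2 of 3 against 2 of 5 in mitochondria. The share of all listed coding genes was 43.8%. These groups are small, and their differences were not tested.

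The number of windows tested in each gene was recovered from the ratio of q-value to p-value. Its median was 32 in the listed cytosolic genes (7 to 70) and 32.5 in the mitochondrial genes (11 to 51), compared with 35 in all listed coding genes. The share of tested windows that were listed had a median of 10.3% in the cytosolic, 11.0% in the mitochondrial and 8.93% in all listed coding genes. GARS stood highest by this share, and YARS, with 1 of 44 windows, lowest. A single window was listed in CARS2, DARS, HARS, WARS2 and YARS, 23.8% of the listed synthetase genes, compared with 29.0% of all listed coding genes.

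**Figure D4:**
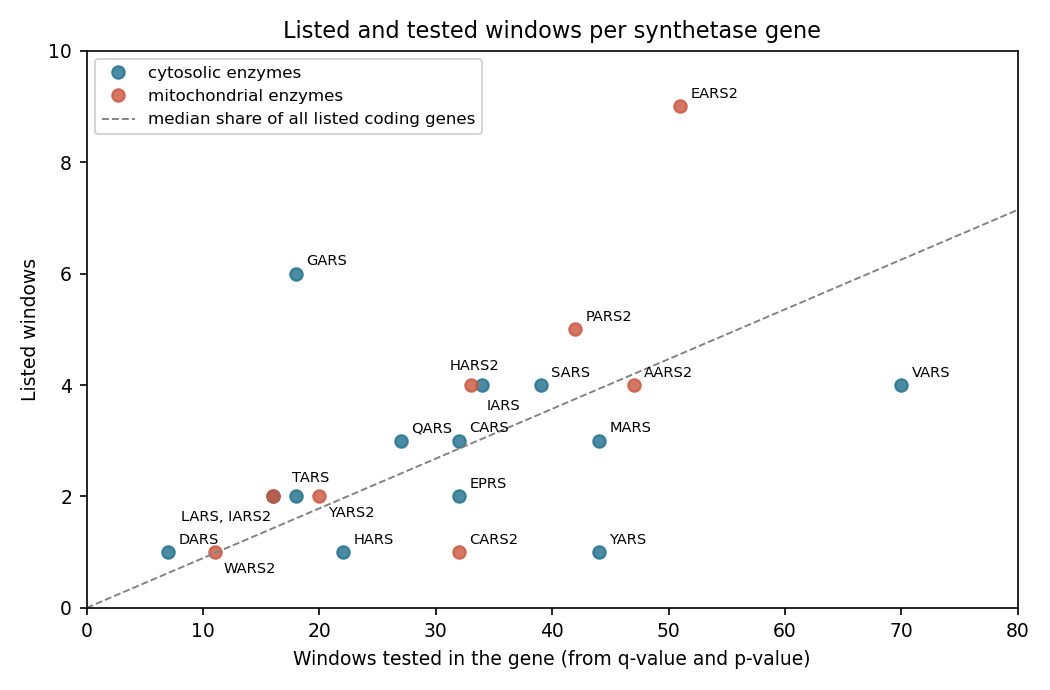
Listed windows (y axis) against windows tested in the gene (x axis), with 1 point for each of the 21 listed synthetase genes, cytosolic in blue and mitochondrial in red; the dashed line is the median share over all listed coding genes (8.93%). GARS with 6 of 18 and EARS2 with 9 of at least 51 lie furthest above the line, and VARS with 4 of 70 and YARS with 1 of 44 lie below it.

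Cytosolic and mitochondrial enzymes for the same amino acid were then set side by side in 17 pairs. Both genes were listed in 6 pairs, the cytosolic gene alone in 5, the mitochondrial gene alone in 2 and neither in 4. EPRS was paired with both EARS2 and PARS2, and FARS2 with both FARSA and FARSB. The strongest windows were at 1.86 in CARS and 2.57 in CARS2, at 2.30 in IARS and 2.48 in IARS2, and at 1.34 in YARS and 1.95 in YARS2. The mitochondrial gene was the higher in these 3 pairs and also for histidine, where HARS had 1.43 and HARS2 1.64. In contrast, EPRS at 3.03 was above EARS2 at 1.68 and PARS2 at 1.49. LARS, MARS, SARS, TARS and VARS were listed without their mitochondrial counterparts, and AARS2 and WARS2 without their cytosolic ones. The genes of a pair were alike, both listed or both not, in 10 of the 17 pairs. With 13 of 20 cytosolic and 8 of 16 mitochondrial genes listed, some pairs would be alike without any link between their genes. How many was not computed, so nothing is read from this count.

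HARS and HARS2 lie head to head, and the 84 bp between their 5′ ends (chr5:140691371-140691454, shown on the plus strand, on which HARS2 lies) are printed because windows of both genes begin close by on either side. The window of HARS began 66 bp from this stretch on the minus strand and the nearest window of HARS2 176 bp from it on the plus strand.
HARS and HARS2: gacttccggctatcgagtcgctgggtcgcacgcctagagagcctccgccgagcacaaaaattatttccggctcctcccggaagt

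The windows of these neighbours did not overlap. No window of any synthetase gene overlapped a listed window of another gene on either strand.

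Partner genes of the synthetases were counted from a list of 24, of which 15 (62.5%) had a listed window, beside 31.8% of RefSeq protein-coding genes. As with the synthetases, expression was not taken into account and nothing is read from this difference. Of the scaffolds of the multi-synthetase complex, AIMP1 had 1 window at 2.21, and AIMP2 and EEF1E1 had none. In mitochondria, glutaminyl-tRNA is made by a route that amidates a mischarged tRNA, and of its subunits GATC had 6 windows (strongest 3.11), GATB 1 (1.55) and QRSL1 none. MTFMT, which formylates the initiator tRNA, had 1 window at 1.77.

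Of the genes for selenocysteine tRNA, PSTK had 2 windows (2.82) and SEPSECS none. Both windows that the table assigns to PSTK lay outside the RefSeq gene, at positions of -15819 and -15519 bp relative to its 5′ end. AARSD1 and TRNT1, which act in editing and in the repair of the tRNA end, each had 1 window at 2.72, and DTD1 had none. EEF1B2, EEF1D and EEF1G, subunits of the elongation factor 1 complex with which VARS associates, had 1, 9 and 2 windows (1.80, 2.42 and 2.24). TUFM, which delivers charged tRNA in mitochondria, had 2 windows (1.12), and its cytosolic counterpart EEF1A1 had none.

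Of the genes that respond to uncharged tRNA, the kinase EIF2AK4 had 5 windows (2.41) and its activator GCN1 had 7 (2.32), whereas ATF4 and ASNS, which act downstream, had none. The GAIT complex, which is formed around EPRS after IFN-γ in myeloid cells, includes RPL13A with 1 window at 0.95, GAPDH with 2 (1.23) and SYNCRIP with none, so EPRS at 3.03 was the highest of its genes. The strongest window was near the 5′ end in 4 of the 15 listed partner genes (26.7%), compared with 31.3% of all listed coding genes.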

How the data were processed

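The authors deposited 1 table of 50 bp windows in which each has a p-value, a q-value, a signal value and a rank, and no column for a single library. The signal value and the rank are scores whose scale the authors did not state, so they are compared only within the table. STAR 2.7.3a and GRCh38 are named in the submitters' processing notes. The peak caller, the annotation and the filters are not given in the sources used here. Library preparation kept the strand and removed ribosomal RNA.

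Of 26820 rows, 1 exact repeat was dropped. The 26819 windows lay in 7550 genes, of which 6679 were protein-coding. All 36 synthetase symbols were matched to RefSeq (GRCh38.p14), with a final 1 accepted on cytosolic symbols. Of the listed coding genes, 6379 (95.5%) were placed on RefSeq, and 97.3% of their windows lay inside the gene. Because the deposited q-values are adjusted within each gene, the number of tested windows was computed from them. The p-values and their order among the listed windows of the gene were also used, and the deposited rank was not. In genes with 9 windows the number is a lower bound. This step recovered 100% of 2000 genes in simulated data within 1%. The simulated q-values were themselves adjusted within each gene and not rounded, and genes with more than 9 passing windows were skipped. The simulation therefore checks the arithmetic and cannot show how the deposited q-values were made. Python 3.11.15, pandas 2.3.3, NumPy 2.4.6 and matplotlib 3.10.9 were used.

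The set of genes and the lists of partners were chosen with earlier results of these data known, so no list was tested. Some genes first put on the partner and marker lists are not reported here and are in none of the counts. Every synthetase is accounted for, with full values for the 3 highest and 3 lowest strongest windows and for all windows of WARS. Alternatives were a q-value of at most 0.001, a signal value of at least 2, a Bonferroni limit over 309997 tested windows, touching windows joined, genes at 9 windows or GARS and KARS left out, and no overlap with other genes. Other limits of distance, other start sites, the window with the smallest p-value and another choice between tied windows were added after seeing the data.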

Additional observations from a re-analysis of the deposited data

How the results depend on the processing

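The 21 listed genes became 12 at a q-value of at most 0.001, 11 at a signal value of at least 2 and 6 at the Bonferroni limit (EPRS, LARS, QARS, SARS, TARS and CARS2). The 13 cytosolic genes became 9 at the stricter q-value, 8 at a signal value of at least 2 and 5 at the Bonferroni limit. The 8 mitochondrial genes became 3 at the stricter q-value, 3 at a signal value of at least 2 and 1 at the Bonferroni limit. Of RefSeq protein-coding genes, 22.1% had a window with a signal value of at least 2. Their shares at the other limits are not given here, so these losses cannot be called particular to synthetases. At the stricter q-value the median number of windows was 1 in both compartments, and the median strongest signal value was 2.30 in cytosolic and 2.48 in mitochondrial genes, so the order of the compartments turned. Without GARS and KARS the cytosolic medians were 2.5 windows and 2.185. Without EARS2, which had 9 windows, the mitochondrial medians were 2 windows and 1.95. With touching windows joined the medians were 2 regions in cytosolic and 2.5 in mitochondrial genes. These settings kept fewer genes or windows or, with touching windows joined, changed the unit counted. What caused the differences was not tested. WARS had 0 windows in every setting tried, and leaving out windows that overlap another gene changed no count. No paired analysis was possible because values of single libraries were not part of the data used.

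The table limits these counts. Depth is unknown, a gene with little RNA has few reads to pass the q-value, and windows above the limit are not listed. Since windows were adjusted within each gene, a gene with more tested windows met a stricter limit for each of them. The signal value cannot be turned into a fold enrichment. All libraries came from cells with overexpressed YTHDF1.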
